A study of Mus musculus with 6 samples.

Results

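The Notch receptors, ligands and targets were examined in mouse embryonic fibroblasts with and without Zmpste24, a protease that matures prelamin A to lamin A. The group holds 10 genes: the receptors Notch1, Notch2, Notch3 and Notch4, the ligands Jag1, Jag2 and Dll1, and the transcriptional targets Hes1, Hey1 and Hey2. Members were all probe sets whose only gene symbol in the platform annotation is one of these names, which gave 18 probe sets of 45037 in all, and 10 genes of 18193 named ones. RNA was measured on 1 Affymetrix Mouse Genome 430 2.0 array per culture. Of the 6 cultures, 3 were Zmpste24+/+, called wild type here, and 3 were Zmpste24-/-. All came from C57BL/6 embryos at E13.5, were grown in Dulbecco's medium with fetal calf serum, and were harvested at passage 3. The labels name no other agent. The labels speak of 3 pairs of cultures and number them 1 to 3 in each genotype, but do not say what a number marks, which embryos or litters the cultures came from, or which part of Zmpste24 is deleted. P-values therefore measure the spread between these cultures only.

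Notch receptors are single-pass membrane proteins that are switched on by ligands of the Jagged and Delta families on a neighbouring cell. Ligand pulling exposes the receptor to an ADAM protease and then to gamma-secretase, which releases the intracellular domain. That domain enters the nucleus, joins the DNA-binding protein RBPJ and a Mastermind coactivator, and turns on repressor genes of the HES and HEY families. In mesenchyme the pathway is known for keeping progenitors undifferentiated, and Notch3 for its role in mural cells of blood vessels.

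The label checks came first. Zmpste24 signal was 2714 ± 989 over the wild-type arrays and 258 ± 95.7 over those of Zmpste24-/- (SD, n = 3 each), which puts Zmpste24-/- at 9.50% of wild type. All 8 fibroblast markers, collagens and Pdgfra among them, were bright enough to test. Both arrays numbered 1 stood apart: over all probe sets bright enough to test their r was 0.985 with one another but 0.927 to 0.934 with any of the other 4. Among themselves those 4 had an r of 0.980 to 0.987. Xist, the RNA of the inactive X chromosome, had a signal of 5324 in wild-type culture 1 but 69.3 and 43.7 in wild-type cultures 2 and 3, and 4766 to 6669 in Zmpste24-/-. Eif2s3y and Kdm5d, both on the Y chromosome, were at 531 and 326 or more in wild-type cultures 2 and 3 and at 15.7 or less in the other 4. Sex signatures thus matched only within the pair numbered 1, and genotype and sex cannot be told apart within numbers 2 and 3. Within wild type, culture 1 also differed from cultures 2 and 3 in sex signature, so number and sex cannot be told apart there. In Zmpste24-/- the sex signature was alike in all 3 cultures.

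RefSeq promoter windows, which run from 250 bases before to 50 bases after a gene's start on build GRCm38.p6, were found for 8 of the 10 genes, in 9 entries. They were searched on both strands for 4 motifs. The first was GTGGGAA, read as TTCCCAC on the other strand, and the next was the shorter TGGGAA that lies within it, the core bound by RBPJ. The others were CACGCG, read as CGCGTG on the other strand, and also the palindrome CACGTG, which are bound by HES and HEY repressors. The windows of 4 genes are given 5′ to 3′ on the gene's strand, because Notch1, Notch3 and Jag1 differed between culture numbers and Hey2 is the one of the 8 with the RBPJ core. Capitals mark GTGGGAA and CACGCG matches on either strand.
Notch1, chr2:26503773-26504072, minus strand: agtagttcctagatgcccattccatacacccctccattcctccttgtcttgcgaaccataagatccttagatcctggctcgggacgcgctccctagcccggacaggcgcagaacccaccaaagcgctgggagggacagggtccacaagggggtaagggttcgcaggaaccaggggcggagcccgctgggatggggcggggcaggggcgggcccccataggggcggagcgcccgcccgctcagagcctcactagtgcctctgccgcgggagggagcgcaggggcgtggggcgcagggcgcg
Notch3, chr17:32166841-32167140, minus strand: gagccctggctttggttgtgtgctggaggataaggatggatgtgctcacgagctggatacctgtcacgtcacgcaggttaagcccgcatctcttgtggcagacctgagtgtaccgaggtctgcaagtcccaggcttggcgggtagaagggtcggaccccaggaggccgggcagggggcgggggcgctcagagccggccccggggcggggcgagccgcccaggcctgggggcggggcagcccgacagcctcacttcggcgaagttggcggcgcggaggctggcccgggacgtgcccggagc
Jag1, chr2:137116471-137116770, minus strand: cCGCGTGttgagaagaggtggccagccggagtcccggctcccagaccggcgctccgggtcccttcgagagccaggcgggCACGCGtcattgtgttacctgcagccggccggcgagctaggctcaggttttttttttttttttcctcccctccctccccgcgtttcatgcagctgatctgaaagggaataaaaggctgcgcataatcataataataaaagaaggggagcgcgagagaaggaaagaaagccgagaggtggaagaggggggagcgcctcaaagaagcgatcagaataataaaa
Hey2, chr10:30842734-30843033, minus strand: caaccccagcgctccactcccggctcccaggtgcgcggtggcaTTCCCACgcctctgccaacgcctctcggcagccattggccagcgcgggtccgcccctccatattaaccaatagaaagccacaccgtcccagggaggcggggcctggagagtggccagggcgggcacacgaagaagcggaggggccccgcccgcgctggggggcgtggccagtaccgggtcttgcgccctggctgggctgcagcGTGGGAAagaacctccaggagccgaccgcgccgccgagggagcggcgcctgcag
The Hey2 window held GTGGGAA on both strands, beginning 207 bases before the start on the minus strand of the gene and 4 bases before it on the plus strand. Of all 32851 promoter windows, 6.38% held GTGGGAA and 25.6% held TGGGAA, and Hey2 was the only one of the 9 member entries with either. The targets Hes1 and Hey1 had no entry, so their promoters were not searched. The Jag1 window held CACGCG at 249 and 171 bases before the start. CACGCG was in 4 of the 9 member entries, those of Jag1, Notch2 and Jag2 and 1 of the Dll1 entries, against 9.27% of all windows, and CACGTG was in 0 of 9, against 7.15%. A match describes letters only, not a bound site.

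No Notch receptor, ligand or target passed the genotype test, which also did not call the deleted gene. For Zmpste24 the limma adjusted p was 0.987, and it was 4.02e-05 once the replicate block was added, so the lack of calls without a block shows little about the Notch genes. Signals are linear intensities scaled to the same trimmed mean on every array, differences are Zmpste24-/- minus wild type on the log2(signal + 16) scale, and the test was limma across 27022 probe sets with Benjamini-Hochberg adjustment at 0.05. Of the 18 member probe sets 14 were bright enough to test, those of 9 genes, and 0 of 14 were called, with a background of 0% of all tested probe sets. Before adjustment 1 of 14 had p under 0.05, which is 7.14%, against a background of 1.29%. By each gene's brightest probe set 5 members were higher and 4 lower in Zmpste24-/-, with a median difference of 0.10 beside -0.0048 over all tested probe sets. In a pool of cells, fewer cells of a type and less RNA per cell cannot be told apart. With the replicate number as a block 0 of 14 were called, against a background of 0.0185%, and 2 of 14, or 14.3%, had an unadjusted p under 0.05, against 8.99%; these were the dimmer Notch1 probe set and the brightest of Jag1. Values below are in the order of cultures 1, 2 and 3.

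**Figure D1:**
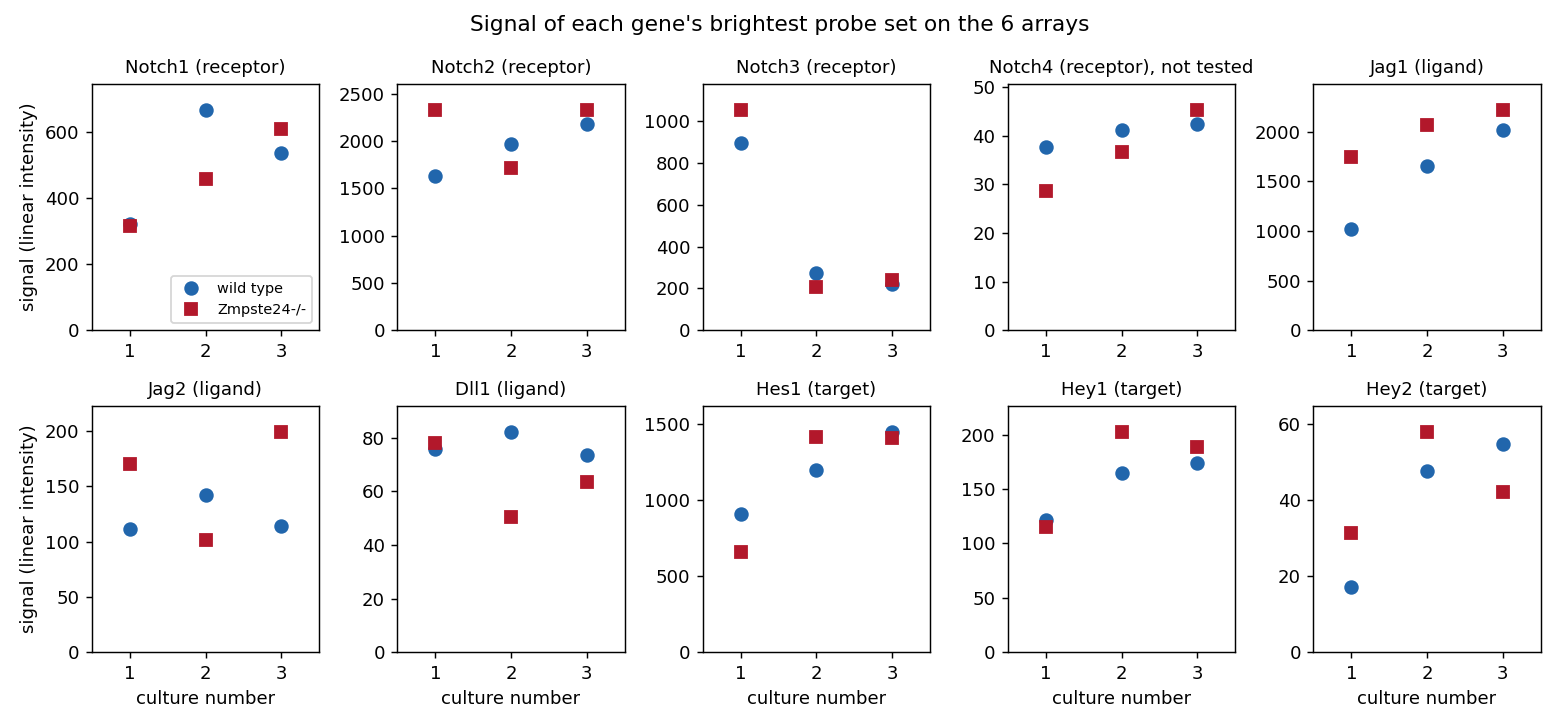
Signal of the brightest probe set of each of the 10 members against culture number, 1 panel per gene with its own linear axis from 0. Circles are the 3 wild-type arrays and squares the 3 Zmpste24-/- arrays, each a single culture. The genotypes overlap for every gene shown, while for Notch3 both arrays numbered 1, at 894 and 1053, lie far above the other 4.

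Among the receptors, Notch1, the family member best known from T cell and vessel development, gave different values in its 2 probe sets. The brighter, 1418634_at, read 320.4, 667 and 536 in wild type and 316, 459 and 608 in Zmpste24-/-. Low values belonged to both cultures numbered 1, and the genotypes overlapped. Its difference was -0.12 (SE 0.34, 95% interval -0.95 to 0.70), and the pair differences were -0.018, -0.52 and 0.18. The dimmer Notch1 probe set, 1418633_at, read 105, 159.8 and 123 in wild type and 50.9, 76.8 and 89.4 in Zmpste24-/-. Here every Zmpste24-/- array was below every wild-type array, with means of 129 ± 28.1 over the wild-type arrays and 72.3 ± 19.6 over those of Zmpste24-/- (SD, n = 3 each), so that Zmpste24-/- stood at 56.02% of wild type. The difference was -0.72 (SE 0.26, 95% interval -1.34 to -0.11), with a limma adjusted p of 0.99985. The replicate block gave a limma adjusted p of 0.401, and the pair differences were -0.85, -0.92 and -0.40, the first of them from the pair with like sex signatures. It was the only one of 14 member probe sets whose groups did not overlap with lower values in Zmpste24-/-, against a background of 3.03%, and 0 of 14 did so with higher values, against 2.22%. With any array left out the difference lay between -0.54 and -0.86. No alternative gave a call, the smallest limma adjusted p being 0.276 with array weights.

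Notch2, a receptor with broad mesenchymal expression, read 1632, 1968 and 2184 in wild type and 2326, 1715 and 2322 in Zmpste24-/- by its brightest probe set, 1455556_at. No genotype was set apart, and the pair differences of 0.51, -0.20 and 0.088 differed in sign. The difference was 0.13 (SE 0.19, 95% interval -0.32 to 0.59). The other Notch2 probe set, 1451889_at, read 64.8, 91.4 and 109 in wild type and 68.6, 59.95 and 68.8 in Zmpste24-/-, with a difference of -0.33 (SE 0.23, 95% interval -0.88 to 0.21) in the opposite direction.

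Notch3, the mural cell receptor, read 894, 274 and 222 in wild type and 1053, 206 and 240.5 in Zmpste24-/- by 1421965_s_at. Both arrays numbered 1 were high and the 4 others were low, and within each number the genotypes were close. The genotype difference was -0.017 (SE 0.75, 95% interval -1.81 to 1.77), and the pair differences were 0.23, -0.39 and 0.11. The second Notch3 probe set, 1421964_at, read 151, 74.95 and 34.2 in wild type and 156, 37.1 and 23.2 in Zmpste24-/-, with the same 2 arrays on top and a genotype difference of -0.36 (SE 0.66, 95% interval -1.95 to 1.22).

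Notch4, the endothelial receptor, was represented by 3 probe sets, all below the signal of 39.4 under which probe sets were left out. The brightest, 1456263_at, read 37.6, 41.1 and 42.4 in wild type and 28.6, 36.6 and 45.2 in Zmpste24-/-. The other two lay between 21.5 and 34.8 and between 12.6 and 28.4. No order of the arrays can be read at such signals. Of the 8 endothelial markers Pecam1, Cdh5 and Tie1 were also below that signal, and the summed endothelial signal was 598 to 682 in wild type and 725 to 887 in Zmpste24-/-. Limma called 0 of the 5 tested endothelial markers for genotype. Without Emcn the sums overlapped, at 351 to 426 and 273 to 468. The part of these markers in any member's difference was not tested.

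Among the ligands, Jag1, the Jagged ligand expressed widely in mesenchyme, had the largest genotype difference by brightest probe set, and it did not pass the test. Probe set 1434070_at read 1021, 1659 and 2014 in wild type and 1747, 2068 and 2219 in Zmpste24-/-. Zmpste24-/- was higher in each pair, by 0.76, 0.32 and 0.14, the first again in the pair with like sex signatures, but the groups overlapped because wild-type culture 3 exceeded Zmpste24-/- culture 1. Means were 1565 ± 503 over the wild-type arrays and 2011 ± 241 over those of Zmpste24-/- (SD, n = 3 each), and the difference was 0.41 (SE 0.27, 95% interval -0.24 to 1.05). The replicate block gave a limma adjusted p of 0.43. Leaving out wild-type culture 1 reduced the difference to 0.13, leaving out wild-type culture 3 raised it to 0.61, and cultures 2 and 3 alone gave 0.23. Over all tested probe sets, 8.23% had a larger absolute difference.

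Jag1 has 2 further probe sets. In 1421106_at the signals were 119, 263 and 303 in wild type and 231, 218 and 252 in Zmpste24-/-, where wild-type culture 1 alone was low and the difference was 0.12 (SE 0.34). In 1421105_at they were 108, 128 and 115 in wild type and 112, 138 and 139.6 in Zmpste24-/-, higher in Zmpste24-/- within each pair, with a difference of 0.13 (SE 0.18). Being higher in every pair held for 2 of 14 member probe sets, both of Jag1, against a background of 15.8%, and being lower in every pair for 1 of 14, the dimmer one of Notch1, against 16%.

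Jag2, the second Jagged ligand, read 111, 142 and 114 in wild type and 170.2, 102 and 199 in Zmpste24-/- by 1426430_at. Zmpste24-/- cultures 1 and 3 were the highest and Zmpste24-/- culture 2 the lowest, so that pair differences of 0.55, -0.43 and 0.72 spanned 0. The difference was 0.28 (SE 0.27, 95% interval -0.36 to 0.93). Dll1, the Delta ligand known from somite and muscle development, read 75.6, 82.1 and 73.6 in wild type and 77.8, 50.6 and 63.5 in Zmpste24-/-. Its wild-type arrays lay close together, while Zmpste24-/- cultures 2 and 3 were lower and culture 1 was not. The difference was -0.23 (SE 0.21, 95% interval -0.73 to 0.27), with pair differences of 0.035, -0.56 and -0.17.

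The targets did not separate by genotype. Hes1, a repressor and the most general Notch target, read 909, 1199 and 1446 in wild type and 660.4, 1414 and 1405 in Zmpste24-/-. Both arrays numbered 1 were the lowest, and the genotypes overlapped. The difference was -0.086 (SE 0.34, 95% interval -0.91 to 0.74). Hey1, a related repressor known from vessels and bone, read 121, 165 and 174 in wild type and 115, 202 and 189 in Zmpste24-/-, again with both number 1 arrays lowest, and a difference of 0.10 (SE 0.26, 95% interval -0.53 to 0.73). Hey2, known from heart and artery, read 17.1, 47.6 and 54.7 in wild type and 31.4, 57.9 and 42.2 in Zmpste24-/-, with both number 1 arrays lowest once more. Its difference was 0.15 (SE 0.36, 95% interval -0.71 to 1.01), and its mean signal is close to the limit for testing.

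**Figure D2:**
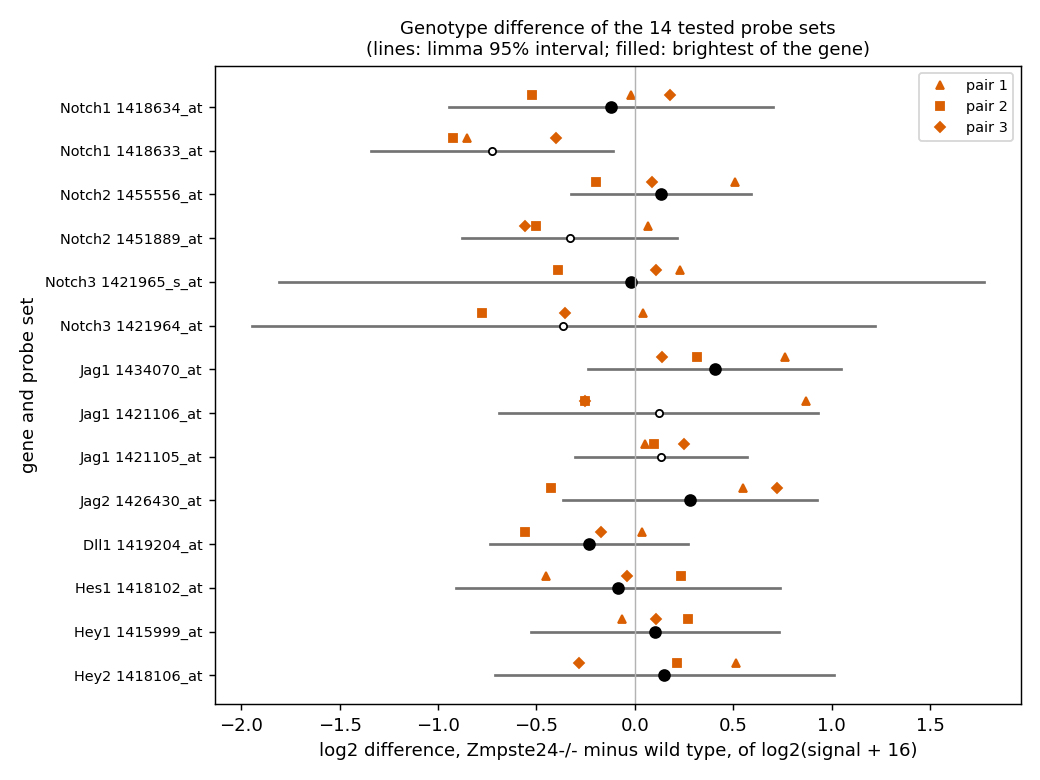
Genotype difference (Zmpste24-/- minus wild type, log2 of signal + 16) of the 14 tested member probe sets, as limma's estimate (filled for a gene's brightest probe set, open for others) with its 95% interval as a line, and the 3 same-numbered pair differences as orange marks. Only the interval of the dimmer Notch1 probe set, -1.34 to -0.11, leaves out 0 before adjustment, and the intervals of Notch3 are the widest.

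By culture number the members did differ. An F test over the 3 numbers, in the limma fit with genotype and number, called 5 of 14 member probe sets, or 35.7%, of Notch1, Notch3 (both), Jag1 and Hes1. The background was 41.6% of all tested probe sets, so the share of members was near that of all probe sets. Without wild-type culture 1 it was 3 of 14, or 21.4%, against 30.9% of all tested probe sets. Both number 1 arrays were above the other 4 in 2 of 14, both of Notch3, against a background of 31.2%. They were below the other 4 in 5 of 14, of Notch1 (the brighter probe set), Jag1 (1421105_at), Hes1, Hey1 and Hey2, against 27.2%.

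Notch3 differed most. Mean signals of numbers 1, 2 and 3 were 974, 239.7 and 231 in its brightest probe set, so number 1 was 4.13 times the mean of the other 4 arrays. On the log2 scale number 1 minus the mean of numbers 2 and 3 was 1.79 in wild type and 2.17 in Zmpste24-/-. Within each number the genotypes differed by far less. The limma F test gave an adjusted p of 1.06e-04 for this probe set and 0.0028 for 1421964_at, and both remained called under every alternative in which they were tested. Of all tested probe sets, 3.64% had a larger range over the 6 arrays.

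Notch1, Jag1 and Hes1 went the other way. For Notch1 the number means were 318, 563 and 572, with number 1 minus the others at -0.87 in wild type and -0.71 in Zmpste24-/- (limma adjusted p = 0.0111). Jag1 had number means of 1384, 1864 and 2116. Here number 1 minus the others was -0.83 in wild type and -0.29 in Zmpste24-/- (limma adjusted p = 0.0165). Whether that gap differs between genotypes was not tested. In wild type, number 1 also differed from the others in sex signature, for this and every other gene. In Hes1 they were 785, 1306 and 1426, with number 1 minus the others at -0.53 in wild type and -1.08 in Zmpste24-/- (limma adjusted p = 0.00525). Thus, by brightest probe set, a receptor, a ligand and a target each had their lowest mean signal in cultures numbered 1, while the receptor Notch3 had its highest there. The other Notch1 and Jag1 probe sets also had their lowest mean in number 1 but were not called. Their limma adjusted p was 0.213 for Notch1 1418633_at, 0.171 for Jag1 1421106_at and 0.571 for Jag1 1421105_at.

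3 of these calls depended on how the spread was estimated. Without an intensity trend in limma the adjusted p was 0.0703 for Notch1, 0.115 for Jag1 and 0.0620 for Hes1. Without wild-type culture 1 it was 0.0592 for Notch1 and 0.0957 for Jag1, and without wild-type culture 3 it was 0.0520 for Jag1. Conversely Notch2, at 0.303 with all arrays, was called without Zmpste24-/- culture 1 (0.0335). Hey1 missed the threshold at 0.0558 and passed it after quantile normalization (0.0264) or median centring (0.0278), with number 1 minus the others at -0.43 in wild type and -0.69 in Zmpste24-/-. For Hey2 the adjusted p was 0.176, with number 1 minus the others at -1.02 in wild type and -0.47 in Zmpste24-/-. Jag2 and Dll1 had limma adjusted p of 0.688 and 0.817.

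**Figure D3:**
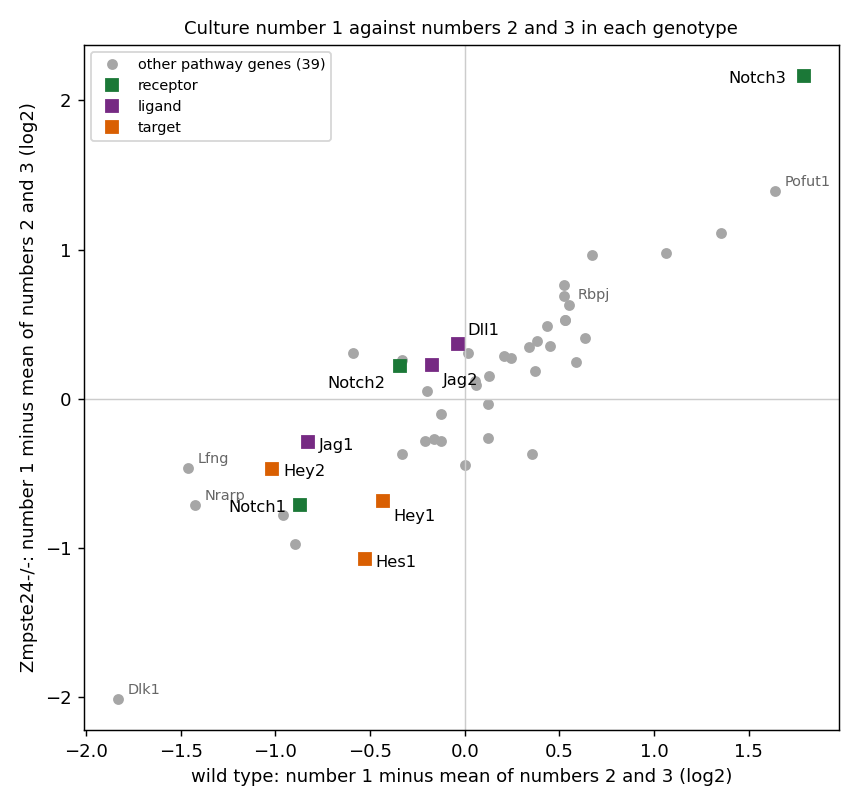
Number 1 minus the mean of numbers 2 and 3 (log2 of signal + 16) in wild type on the x axis and in Zmpste24-/- on the y axis, for 9 members by role (squares) and 39 other pathway genes (circles). Notch3 lies at the upper right with 1.79 and 2.17, while Notch1, Jag1, Hes1, Hey1 and Hey2 lie at the lower left with values below 0 in both genotypes.

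Summed signals of marker genes of other cell types and of division differed in the same number, except in the endothelial list, though several sums rested on few genes. Of all tested probe sets 41.6% were called by number. Both number 1 arrays were above the other 4 in 31.2% and below in 27.2%. The summed signal of 7 macrophage markers was 6063 and 11232 in wild-type and Zmpste24-/- cultures 1 against 1094 to 1673 in the other 4, and 7 of 7 were called with number 1 above. For 5 proliferation genes the sum was 4236 to 4283 against 13434 to 15537, with 5 of 5 called below. Of 8 fibroblast markers 5 were called, 4 with both number 1 arrays above the other 4 and 1 below. They summed to 95646 to 97128 against 77257 to 86981, and without Dcn and Lum to 81520 to 86124 against 76487 to 85641. The 7 mural and smooth muscle markers summed to 40825 to 42228 against 46033 to 49877, and without Acta2 and Tagln to 8059 to 8572 against 6507 to 7637. Here number 1 was above in Pdgfrb, Rgs5 and Myh11 and below in Cspg4, Acta2, Des and Tagln, and all 7 were called. Epithelial markers, with Cdh1 and Krt14 too dim to test, summed to 546 to 669 against 1010.5 to 1487, and without Krt18 to 430.2 to 541 against 405 to 679.8. Of 4 tested 2 were called, Krt18 with number 1 below and Krt8 with overlap. Endothelial markers overlapped, with sums of 598 to 887 against 647 to 769, and 1 of 5 tested was called, Kdr with number 1 below. The 4 neural markers summed to 873 to 1393 against 1610.5 to 2065, with number 1 above in Sox2 and Sox10 and below in Nes and Tubb3, and Sox2 and Nes called. Skeletal muscle markers summed to 52.99 to 126 against 133 to 209, with Myod1, Myog, Myf5 and Pax7 too dim to test and Chrna1 called with number 1 below. Of the dim ones, Myod1 was brightest. It read 3.64 and 48.2 in wild-type and Zmpste24-/- cultures 1, against 22.4 to 41.7 in the other 4. Sums without Nes or Chrna1 were not formed, so a difference of the neural and skeletal muscle lists beyond these genes is not shown. The genes left out of the sums above were picked after their values were seen. The part of these in the members' difference by number was not tested.

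The rest of the pathway also gave no genotype call. Of 45 further genes analysed here, in 6 lists, 39 were bright enough to test. Limma called 0 of 39 for genotype, 0 had an unadjusted p under 0.05, and 22 were higher and 17 lower with a median of 0.036. With the replicate block 0 were called and 2 of 39, Dlk1 and Aph1b, had an unadjusted p under 0.05, which is 5.13% beside the background of 8.99%. In every pair 5 of 39 were higher, or 12.8%, and 7 lower, or 17.9%, beside 15.8% and 16% of all tested probe sets. Among all 39, the largest absolute differences came from Aph1b, a gamma-secretase subunit, and Dtx1, a ubiquitin ligase of the receptor, at -0.34 (SE 0.29) and -0.36 (SE 0.28). All 4 other ligands were higher, with a median of 0.15: Dlk1 by 0.24, Dlk2 by 0.21, Dll3 by 0.078 and Dll4 by 0.064. Of 12 inhibitors and corepressors 8 were lower, with a median of -0.11, among them Numbl at -0.22 and Spen at -0.20. In the ligase and glycosyltransferase list 7 of 8 were higher, such as Mib1, which ubiquitinates ligands, at 0.17 and Neurl1b at 0.15, while Rfng was at -0.15. Proteases and gamma-secretase subunits split 4 to 4, with Ncstn at 0.23 and Furin at -0.13. The nuclear complex stayed near 0, with Ep300 at 0.076, Snw1 at 0.042 and Rbpj at -0.02, as did Heyl at -0.021, while Hes6 was at -0.17.

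By culture number 21 of the 39 were called, or 53.8%, beside the 41.6% of all tested probe sets. These are unlike sets, since the 39 are each gene's brightest probe set and the background holds dimmer ones too. With the filter of 60% the call was made for 19 of 32, or 59.4%, beside 56.5%. In 15 of the called genes both number 1 arrays were above the other 4 and in 6 both were below. Over all 39, called or not, they were above in 17 and below in 8, beside 31.2% and 27.2% of all tested probe sets. Without wild-type culture 1 it was 11 of 39, or 28.2%, against 30.9%, so the larger share does not hold there. Pofut1, the enzyme that puts O-fucose on Notch receptors, read 2053, 724 and 579.7 in wild type and 1875, 668 and 745 in Zmpste24-/-, with an adjusted p of 1.35e-04 by the limma F test. Its partner in receptor modification, the glucosyltransferase Poglut1, read 2368, 1138 and 1109.7 in wild type and 2318, 1119 and 1225 in Zmpste24-/- (limma adjusted p = 1.54e-04). Both were high in the cultures numbered 1 in each genotype. Lfng, the Fringe that extends O-fucose, read 26.4, 105 and 96.8 in wild type and 54.7, 73.4 and 90.6 in Zmpste24-/-, the reverse order, and missed the threshold at a limma adjusted p of 0.0617.

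Rbpj, the DNA-binding partner of the receptors, read 2932, 2014 and 1984 in wild type and 3006, 1912 and 1956 in Zmpste24-/-, with number 1 above (limma adjusted p = 0.00103). Adam17, a receptor-cleaving protease, read 1219, 809 and 868 in wild type and 1322, 899 and 929 in Zmpste24-/- (limma adjusted p = 0.00511). Aph1b, with 494, 377 and 304 in wild type and 433, 257 and 241 in Zmpste24-/-, and the gamma-secretase subunit Psenen were called as well (limma adjusted p = 0.0107 and 0.0127). In this list of proteases 5 of 8 were called, or 62.5%, each with number 1 above, beside 41.6% of all tested probe sets called. In the nuclear complex Kat2b, an acetyltransferase, was called with number 1 above and Maml1, a Mastermind coactivator, with number 1 below (limma adjusted p = 0.0109 and 0.0298). Over the alternatives the call was lost for Psenen in 5, Maml1 in 5, Kat2b in 3 and Aph1b in 1.

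The other ligands gave both directions. Dlk1, a Delta-like protein without the domain that activates receptors, read 849.7, 2820.1 and 3315 in wild type and 923, 3796 and 3749.8 in Zmpste24-/-, lowest in cultures numbered 1 (limma adjusted p = 1.42e-05). Its relative Dlk2 read 129, 224 and 286 in wild type and 146, 335 and 272 in Zmpste24-/- in the same order (limma adjusted p = 0.00671). Dll3, a ligand that acts within its own cell, read 127, 35.6 and 44.8 in wild type and 119, 33.6 and 62.7 in Zmpste24-/-, highest in number 1 (limma adjusted p = 0.00788) except without wild-type culture 1 (0.0853), and Dll4 was not called at 0.304. The inhibitors were split too, 7 of 12, or 58.3%, being called, beside 41.6% of all tested probe sets. Kdm5a, a histone demethylase that acts with RBPJ, read 957, 605 and 719.8 in wild type and 1122, 646 and 739 in Zmpste24-/-, and the ubiquitin ligase Itch was also higher in number 1 (limma adjusted p = 0.0036 and 0.012), though Itch was not called in 3 alternatives. Dtx4 read 239, 473 and 485 in wild type and 220.5, 462 and 327 in Zmpste24-/-, lowest in number 1 (limma adjusted p = 0.00443).

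Among other HES and HEY family genes Hes6, a HES relative that opposes Hes1, read 792, 525 and 459 in wild type and 807, 471 and 349 in Zmpste24-/-. Hes6 was highest in number 1, opposite to Hes1 (limma adjusted p = 0.00214), and Heyl was not called at 0.812. Nrarp, a target that feeds back on the receptor and was picked out after its values were seen, read 39.8, 153 and 117 in wild type and 50.5, 68.05 and 126 in Zmpste24-/-. Its cultures numbered 1 were lowest, as in Hes1, Hey1 and Hey2 (limma adjusted p = 0.0422), and without Zmpste24-/- culture 3 or either of wild-type cultures 1 and 3 it was not called, nor without the filter or the intensity trend, with an adjusted p up to 0.279 over all alternatives. Mfng, Maml2, Hes2, Hes3, Hes5 and Hes7 were too dim to test.

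Notch3 had the largest range of the members, and the genes most like it over the 6 arrays were sought among 13029 named genes by the root mean square difference of log2 values centred on each gene's mean. The 5 closest were Lynx1 (0.0896), Cpeb3 (0.0916), Zc3h6 (0.0965), Crebrf (0.107) and Adcy9 (0.108). Lynx1, a membrane-anchored modulator of nicotinic receptors, read 1806, 572 and 466 in wild type and 1869, 439.8 and 445 in Zmpste24-/-. Cpeb3, an RNA-binding protein, read 336, 83.9 and 73.1 in wild type and 377, 70.7 and 67.9 in Zmpste24-/-. Like Notch3 they were high in both cultures numbered 1 and low in the other 4. The 6 arrays hold 3 numbers and 2 genotypes, so these are few conditions in which to compare patterns.

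**Figure D4:**
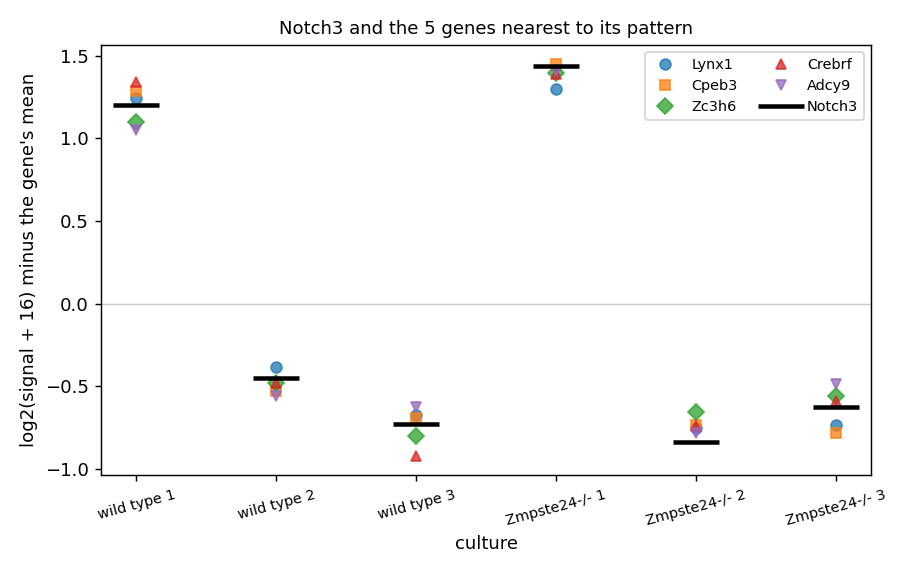
Centred log2(signal + 16) of Notch3 and of the 5 genes nearest to it in each of the 6 arrays, with Notch3 as black bars and the others as coloured marks. All 6 genes are above their own mean in both arrays numbered 1 and below it in the other 4, in each genotype.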

How the data were processed

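The authors deposited linear intensity per probe set, and the submitters' processing notes name GCOS, the scanner maker's program. For its version or options, nothing was given in the sources used here. Every array had the same 2% trimmed mean, so a change in total RNA per cell cannot be seen. The number of arrays, 3 per genotype, limits the precision.

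From 45101 probe sets 64 controls were left out, and then the dimmest 40% by mean over the 6 arrays (signal under 39.4), which left 27022 for testing. In the platform annotation 34945 probe sets had 1 symbol, 932 several and 9160 were not listed, and only those with 1 were named. Gene identifiers matched a RefSeq table for 34741, and 0 symbols changed. Values were analysed as log2(value + 16), which understates the change of dim genes, with limma 3.58.1 in R 4.3.3 (intensity trend, Benjamini-Hochberg adjusted p under 0.05). Genotype was fitted without a block, and culture number by an F test beside genotype. Figures were drawn with matplotlib 3.10.9.

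Members and lists were chosen with earlier results of these data known. Each member is given by its brightest probe set and by any that passed a test or went the other way. Up to 3 genes a pathway list were named by smallest p in each fit, with the 5 genes most like the widest-ranging member. For same-numbered cultures, deviations from the genotype means had correlations of 0.829, 0.588 and 0.574, each over 0.1, so the numbers were taken as pairs. Numbers 2 and 3 also correlated with each other, at 0.487 and 0.551, so the same rule would accept these numbers exchanged between genotypes.

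The genotype and culture number calls were also tried on simulated data with changes of 1 or 2 log2 units. The genotype fit without a block recovered 0% of the smaller and 23% of the larger changes. With the replicate block it recovered 65% and 89%, and the culture number fit 50% and 89%. False calls were 0, 5 and 3 in these 3 fits. The genotype simulation kept the fitted number effects but held no sex difference. The culture number simulation changed number 2 only and held no other number effect. In the data 41.6% of tested probe sets were called by number and number 1 stood apart, so these rates are not the power in these data. Alternatives were pseudocounts of 1 and 64, a filter of 60% or none, array weights, limma without the intensity trend, median centring, quantile normalization, numbers 2 and 3 alone, number 1 against the others or each replicate number as a block, a gene's probe sets averaged, and each array left out.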

Additional observations from a re-analysis of the deposited data

How the results depend on the processing

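For genotype, the count of member probe sets called by limma was 0 in every alternative, the replicate block included, and so was that of the other pathway genes. The fit without a block also missed Zmpste24, so this does not show stability. Directions of single members varied. With each array left out in turn the log2 difference ran -0.41 to 0.12 for Notch1, -0.74 to 0.58 for Notch3, -0.27 to 0.27 for Hes1, -0.040 to 0.33 for Hey1 and -0.19 to 0.36 for Hey2. With numbers 2 and 3 alone Notch2 stood at -0.054, Hes1 at 0.097 and Hey2 at -0.032. With array weights Hes1 was at 0.073 and Hey2 at -0.12, and the mean of its probe sets put Notch2 at -0.099. By brightest probe set Jag1 and Jag2 kept higher and Dll1 lower values in Zmpste24-/- under all alternatives run. The Jag1 probe set 1421106_at was at -0.13 with array weights, -0.25 with numbers 2 and 3 alone and -0.26 without wild-type culture 1. For culture number, without an intensity trend 2 member probe sets and 12 other pathway genes were called instead of 5 and 21, as calls over all tested probe sets went from 41.6% to 28.6%. With an array left out these counts ran from 3 to 7 and from 11 to 19, beside 30.9% to 40% of all tested probe sets, the lowest of both without wild-type culture 1. The cause was not tested. Signal over background limits Notch4 and 1 Jag2 probe set, which could not be tested.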

Other observations

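Some pathway probe sets were too dim to test, so their values carry no call and no order of the arrays is read from them. Hes5, a HES repressor that responds to Notch in the nervous system, read 4.17, 9.50 and 4.12 in wild type and 16.9, 31.0 and 21.7 in Zmpste24-/-. Without the filter on dim probe sets the limma difference was 0.83, with an adjusted p of 0.99988. The second Jag2 probe set, 1426431_at, read 22.0, 32.2 and 18.4 in wild type and 42.2, 34.7 and 44.8 in Zmpste24-/-, and Hes2, another HES repressor, read 12.2, 6.85 and 6.58 in wild type and 5.82, 3.09 and 3.58 in Zmpste24-/-. Their limma differences without the filter were 0.50 and -0.28, each with an adjusted p of 0.99988. Among all 18015 dim probe sets, the genotypes did not overlap in 3.56% with higher and 6.22% with lower values in Zmpste24-/-. These 3 were picked out after their values were seen.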
